A study of Mus musculus with 24 samples.

Results

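Liver of B6C3F1 mice was compared between adults irradiated at 7 weeks of age and infants irradiated at 1 week of age, 24 h after 4 Gy of gamma rays from a 137Cs source given at 0.57 Gy per minute. The comparison took the arrays titled as 7-week and as 1-week liver at 24 h, 4 of each age, so 8 of the 24 arrays of the series. Each age group held 2 males and 2 females, and each array carried total liver RNA. The 4 adult and 4 infant arrays of 0 h, 2 males and 2 females of each age, were used to ask which gaps between the ages remained at 24 h. Those 0 h mice are labelled as sampled after the exposure, while the treatment text also speaks of sham-irradiated mice, so which of these the 0 h arrays hold cannot be told apart. The labels name each array as its own mouse. The p-values and standard errors rest on the spread between arrays of the same age, time and sex. That spread was pooled for each gene over all 24 arrays of the series, and not over the 8 compared alone. Of the 12 means of age, time and sex that were fitted, each rested on 2 arrays.

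Liver in the second week of life is still a blood-forming organ, and its hepatocytes are still taking over the enzymes and secreted proteins of the adult. Genes of the fetal programme, among them alpha-fetoprotein and a network of imprinted growth genes, are being switched off over the same weeks, and most adult hepatocytes have left the cell cycle while infant hepatocytes still divide. Radiation kills blood progenitors and lymphocytes readily, activates p53 and its target genes, and can stop cells before mitosis.

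Levels are given as log2 of the processed signal over each array's 75th percentile of that signal, and array values are always listed as male 1, male 2, female 1 and female 2. A gap is the adult mean minus the infant mean on this log2 scale with its standard error, so a positive gap means higher in adults. A gap passed at a Benjamini-Hochberg adjusted p under 0.05 in limma over 23115 genes. Replicate arrays of the same age and sex at 24 h correlated at 0.988 to 0.993 over genes, the 75th percentile of the signal ran from 174.6 to 370.3 intensity units over the 8 arrays, and 41.5% to 52.0% of probes were well above background, the adult males lying lowest at 41.5% and 41.7%. The 4 hepatocyte markers tested were above background on all 8 arrays, with a summed level of 1820 to 2430 times the 75th percentile in adults and 1480 to 1920 in infants. No slide held both ages at 24 h: the 4 infant arrays lay on slide 1, the adult males on slide 2 and the adult females on slide 3, so age and slide cannot be told apart array by array. In bulk RNA, fewer cells of a type and less RNA per cell cannot be told apart.

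Adult and infant liver differed widely 24 h after the exposure. A gap passed for 15367 genes, 66.5% of those tested, of which 10243 (44.3%) were higher and 5124 (22.2%) lower in adults. The split between the directions depended on the scaling: adults were the higher group in 66.7% of calls with the 75th percentile, in 50.3% after quantile normalization and in 55.3% after scaling to the median of probes measured on all arrays. The median over all genes was 0.27 on the log2 scale, against 0.05 and 0.11 under those alternatives, so gaps are best read against this shift. Gaps of at least 2-fold were found for 3063 genes higher and 2717 lower in adults. For 1611 of the gaps that passed, the lower age was not above background on any of its 4 arrays; for such genes the difference is given as "at least" a fold against the dimmest well-measured probe of each array. With the slide as a term of the fit, 7267 genes passed. That fit held the sex difference within each age constant over time. Of the genes described here, the gap at 24 h of Kynu, Rhd, Myb, Tfrc, Zmat3, Cmpk2, Clec4g, Phlda3, Gdf15, Rsad2 and Ppp1r15a did not pass in that fit. Those of Cyp7a1, Dbp and Cdkn1a passed in it but not in the main fit.

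Most gaps seen at 0 h were still there at 24 h. At 0 h, 70.8% of genes passed, 46.8% higher and 24% lower in adults, and 12915 of these 16357 genes passed again in the same direction at 24 h, which is 79% of the gaps at 0 h and 84% of those at 24 h. The share that remained was 80.1% for genes higher in adults and 76.7% for genes higher in infants. Of the 7092 gaps of at least 2-fold at 0 h, 88.8% passed in the same direction at 24 h and 64.7% were still at least 2-fold. Over the 12915 remaining gaps the median size went from 0.98 to 0.83 log2 units.

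The change of the gap from 0 h to 24 h was tested directly, as an interaction of age and time, and passed for 14.5% of genes: 1340 (5.8%) moved towards adults and 2006 (8.68%) towards infants. Among remaining gaps, 1488 were narrower and 409 wider at 24 h by this test. Gaps passed only at 0 h for 3262 genes, and the change itself passed for 855 of them. Another 2272 genes passed only at 24 h, with a change that passed for 413. For 180 genes the gap passed at both times with opposite sign, 160 of them above background on all 16 arrays, and 93 of those 160 went from higher in infants to higher in adults. With the slide as a term the changes of Mup1, Hamp, Actg2, Acta2, Krt19 and Pecam1 did not pass. With the slide as a random block the changes of Cyp7a1, Ccne1, Dbp, Saa1, Acta2, Actg2, Hamp and Pecam1 did not pass, and in a fit without sex those of Cyp7a1, Ccne1, Dbp, Saa1, Clec4g and Cyc1 did not. After normexp background correction those of Mup1, Mup17, Ccna2 and Pecam1 did not pass. The count of changes moved with single arrays: it was 2187 without infant female 1 of 24 h, 2202 without infant male 2 of 24 h and 2225 without infant female 2 of 0 h. Within each age, 20.2% of genes passed between 0 h and 24 h in infants and 13.9% in adults. These comparisons share arrays with the gaps and are given beside them as values. No array of 24 h is labelled as unirradiated. A response to the exposure and growth over the same 24 h therefore cannot be told apart, in the changes of the gap or within either age.

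**Figure D1:**
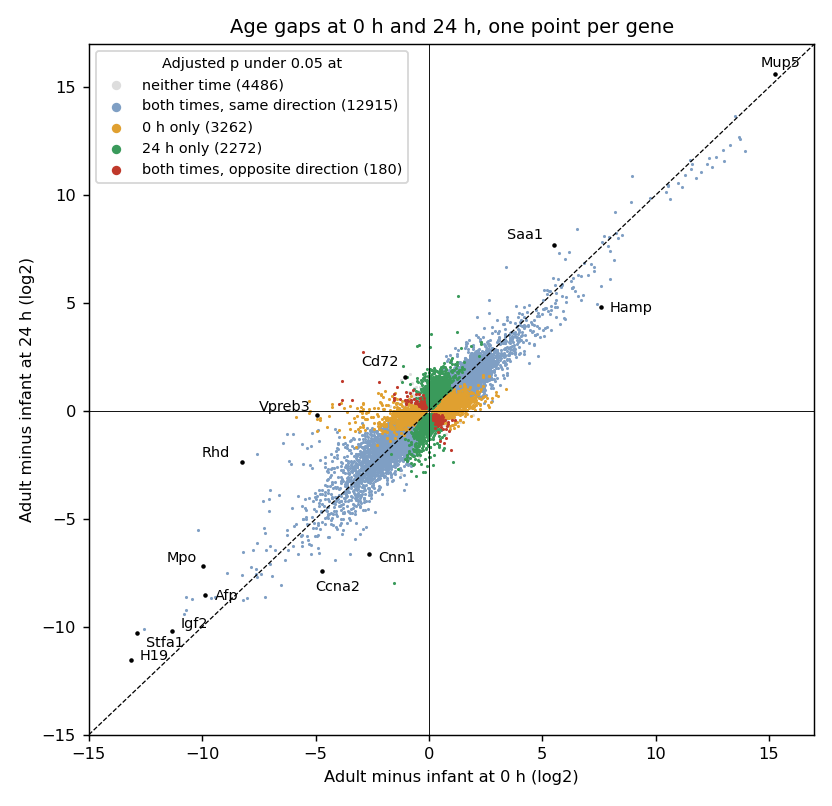
Age gap of every gene tested at 0 h (x axis) and at 24 h (y axis), adult minus infant in log2 units, coloured by the time at which the gap passed. The 12915 blue genes lie along the dashed line of equal gaps, Mup5 at the adult end and H19 at the infant end, while B cell and red cell genes such as Vpreb3 and Rhd lie far above the line and cell cycle genes such as Ccna2 lie below it.

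The largest gaps were those of proteins that adult liver secretes. Major urinary proteins are pheromone-binding proteins released into the blood and urine, and all 11 of the family that were tested were higher in adults, with a median gap of 11.43 at 24 h against 12.47 at 0 h. Probes of this family may read near-identical copies, so the members cannot be taken as separate measurements. Mup5 read 9.73, 9.37, 9.14 and 9.39 in adults and was not above background on any infant array, at least 11630-fold apart. Mup1 read 10.61, 10.14, 9.99 and 10.34 in adults and -2.53, -2.18, -2.37 and -2.21 in infants, a gap of 12.59 ± 0.15 (adjusted p = 1.3e-16). On the 4 infant arrays of 0 h Mup1 was below background, and it was above it on all 4 at 24 h. Mup17 read 9.12, 8.88, 8.39 and 8.85 in adults and -3.54, -3.40, -3.10 and -2.98 in infants, where 3 of 4 arrays were above background. For the family, 8 of 11 changes passed towards infants; the count was 3 with the slide as a term and 3 after normexp background correction.

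Serpina3k, a serine protease inhibitor of plasma, read 10.53, 10.31, 9.88 and 10.01 in adults against -1.63, -1.72, -0.12 and -0.60 in infants, a 2356-fold gap. Orm1, an acute phase glycoprotein that binds drugs, was 1370-fold higher in adults. The ages did not overlap for either gene, and neither gap changed detectably from 0 h (adjusted p = 0.481 for Serpina3k and 0.922 for Orm1). Among 21 hepatocyte identity genes 17 were higher and 1 lower in adults, with a median of 0.55 that is to be read against 0.27 for all genes. Only 7 of them were higher after quantile normalization. Hnf4a, a master transcription factor of hepatocytes, read 7.88, 7.99, 7.54 and 7.70 in adults and 6.80, 6.80, 6.60 and 6.69 in infants, a 2.08-fold gap that was 2.06-fold at 0 h. Apoc3, the apolipoprotein that restrains lipoprotein lipase, was 8.97-fold higher in adults.

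Complement genes made the adult side too, though less evenly, with 28 of 39 complement and coagulation genes higher and 2 lower in adults; after quantile normalization 14 were higher and 13 lower. C9, which forms the pore of the membrane attack complex, was 13.6-fold higher in adults. C6, another part of that complex, read 5.23 and 5.25 in adult males, 1.21 and 1.23 in adult females and -0.61, -0.61, -0.03 and -0.05 in infants. Every adult array was above every infant array, and the adult males lay far above the adult females.

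Drug and steroid metabolism was mostly an adult trait. Of 32 cytochrome P450 genes 25 were higher and 6 lower in adults, and of 26 conjugation enzymes 22 were higher and 2 lower. In a fit without sex 23 P450 genes were higher and none lower. The P450 gap differed between the sexes, more positive in males for 4 genes and in females for 9. The medians of the P450 and conjugation lists were 1.33 and 1.94 at 24 h and 1.66 and 2.0 at 0 h. For these medians, values below each array's dimmest well-measured probe were raised to it. The same was done for the medians of the granulocyte, G2 and M phase, matrix and endothelial lists given below. Cyp1a2, which oxidises caffeine and aromatic amines, read 5.16, 5.37, 4.78 and 4.64 in adults and 3.89, 3.81, 3.68 and 3.70 in infants. Its gap was 1.22 ± 0.14 at 24 h and 2.19 at 0 h, a change of -0.97 ± 0.19 (adjusted p = 0.00582), beside a rise of 0.74 in infants. Sult5a1, a sulfotransferase, was 33.1-fold higher in adults.

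Bile acid genes followed, with 14 of 19 higher and none lower in adults at 24 h, against 18 of 19 higher at 0 h. Slco1a1, an uptake carrier for organic anions and bile acids, read 4.26, 4.53, 3.47 and 3.41 in adults and was below background on all infant arrays, at least 258.8-fold apart. Cyp7b1, of the alternative pathway of bile acid synthesis, read 8.04, 8.01, 4.74 and 4.93 in adults and 0.33, -0.12, -0.25 and -0.25 in infants. Cyp7a1, the rate-limiting enzyme of the classical pathway, was one of those whose gap no longer passed: it read 1.84, 3.17, 2.67 and 3.69 in adults and 1.75, 2.24, 2.55 and 2.43 in infants. The Cyp7a1 arrays overlapped, the gap was 0.60 ± 0.40 (adjusted p = 0.199), and at 0 h it had been 2.55. The change of -1.95 ± 0.56 passed with all arrays (adjusted p = 0.0346) but not when any of 9 single arrays was left out.

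Some lipid synthesis genes stayed far higher in adults. Scd1, which makes monounsaturated fatty acids, read 6.33, 6.75, 7.29 and 6.36 in adults and 0.86, 0.56, 1.30 and 0.89 in infants. That is a 54.9-fold gap, down from 194-fold at 0 h, and Scd1 rose by 1.76 in infants while adults differed by -0.06 (adjusted p = 0.876). Thrsp, a lipogenic regulator induced by thyroid hormone and carbohydrate, was 126.8-fold higher in adults. In the fatty acid synthesis list 12 of 18 genes were higher and 3 lower in adults, and in cholesterol synthesis 14 of 22 were higher and none lower (9 higher after quantile normalization and 5 with the slide as a term). Their median gaps were 0.91 and 0.67, and 0.42 and 0.36 after quantile normalization. Insig1, which holds back sterol synthesis, was 4.36-fold higher in adults. In fatty acid oxidation 11 of 26 genes were higher and 7 lower in adults, near the 44.3% and 22.2% of all genes (3 and 4 with the slide as a term), and its median of 0.18 turned to -0.30 after quantile normalization. Pdk4, which spares glucose by inhibiting pyruvate dehydrogenase, was lower in adults at -0.35, -1.74, 0.93 and -0.02 than in infants at 1.74, 1.76, 1.70 and 1.68.

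Amino acid breakdown was where adult metabolic gaps narrowed most often. Of 23 urea cycle and amino acid genes 19 were higher and 1 lower in adults at 24 h, yet the median gap was 0.51 against 1.34 at 0 h, and 13 changes passed towards infants and 1 towards adults (background 8.68% and 5.8%). After quantile normalization 9 of the 23 remained higher in adults, and 10 did with the slide as a term. Cps1, the first enzyme of the urea cycle, read 6.24, 6.56, 6.32 and 6.29 in adults and 5.85, 6.12, 6.17 and 6.16 in infants. The adult values were all above the infant values, but by 0.27 ± 0.16, which did not pass (adjusted p = 0.14), where the gap at 0 h was 3.29-fold. Cps1 rose 2.86-fold in infants between 0 h and 24 h, while the adult mean was 6.28 at 0 h and 6.35 at 24 h. Over the same interval the summed level of 10 erythroid markers in infants went from 432 to 623 down to 152 to 343, and its part in these changes was not tested. Kynu, kynureninase of tryptophan breakdown, narrowed from 2.76-fold to 1.51-fold, while Arg1, the arginase that releases urea, stood at 2.80-fold with a change that did not pass (adjusted p = 0.0736).

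**Figure D2:**
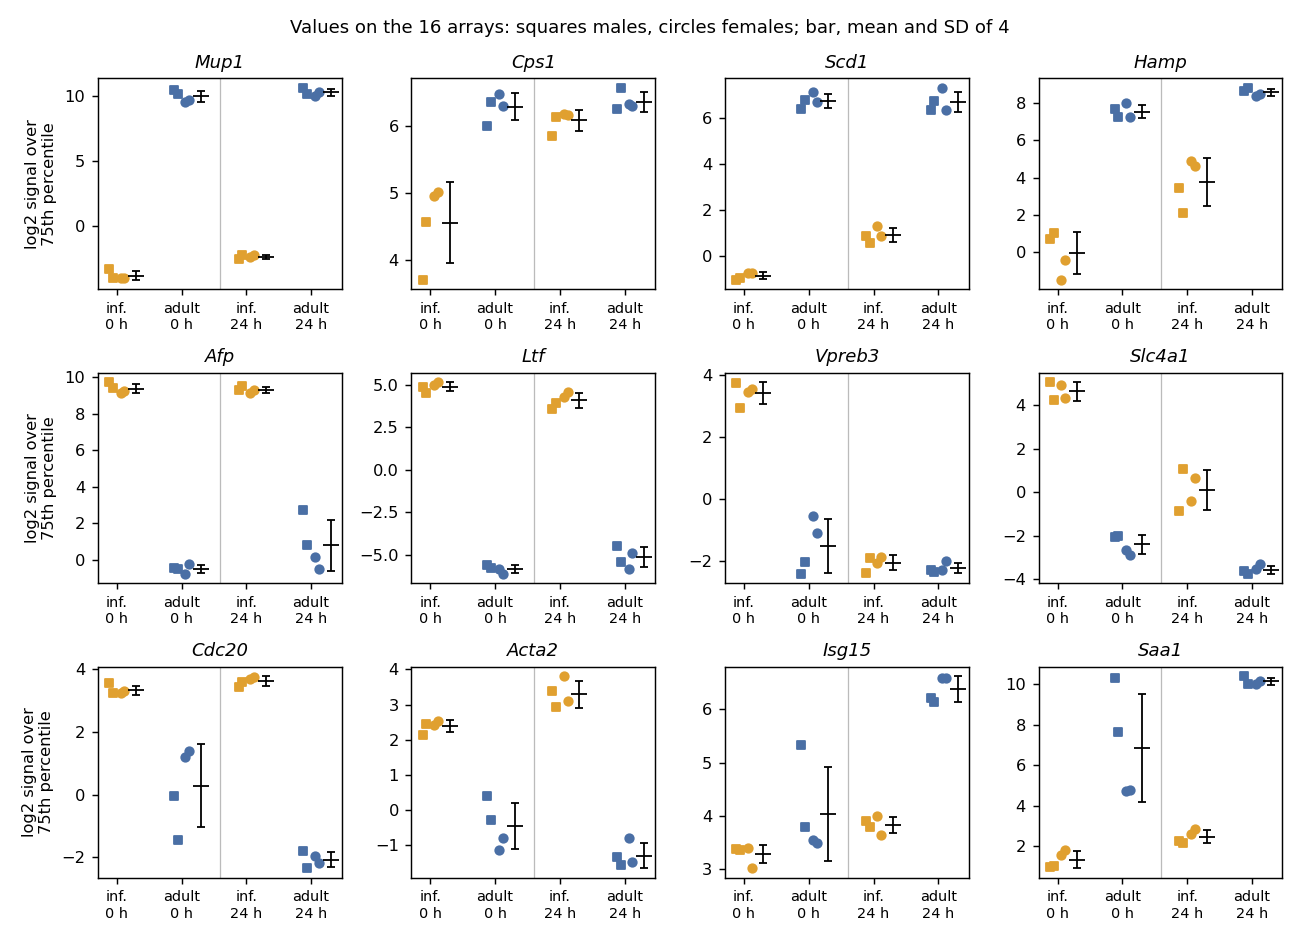
Levels of 12 genes on the 8 arrays of 0 h and the 8 arrays of 24 h, as log2 signal over each array's 75th percentile, with squares for males, circles for females and the mean and SD of 4 arrays beside them. Mup1, Afp and Ltf stay far apart between the ages, while Cps1 and Vpreb3 come close at 24 h, Vpreb3 with overlap and Cps1 without. Cdc20, Isg15 and Saa1 show adult values that are close together at 24 h and spread at 0 h.

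Genes of the fetal liver programme made the infant side. Of 29 fetal liver genes 23 were lower and 5 higher in adults (2 after quantile normalization), with a median gap of -3.94 at 24 h and -3.59 at 0 h. Afp, alpha-fetoprotein, read 2.70, 0.82, 0.13 and -0.50 in adults and 9.30, 9.50, 9.10 and 9.28 in infants, a 364.6-fold gap. H19, an imprinted noncoding RNA of growing tissue, read 1.26, -2.32, -4.10 and -3.21 in adults and 9.38, 9.53, 9.40 and 9.45 in infants, a 2958-fold gap with the probe read here above background on 3 of 4 adult arrays. Adult male 1 was the highest adult array for both genes, and no adult array came near an infant one. Igf2, the fetal insulin-like growth factor, was below background in adults and at least 533.4-fold higher in infants. Gpc3, a heparan sulfate proteoglycan that restrains growth, and Dlk1, a ligand-like protein of progenitors, were at least 122.3-fold and 87.9-fold higher in infants.

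Across the 20 imprinted growth genes tested 15 were lower and 3 higher in adults, and the median gap was -2.50 at 24 h and -2.37 at 0 h. Cdkn1c, an imprinted inhibitor of cyclin-dependent kinases, read -0.19, -0.47, 0.89 and 0.77 in adults and 5.61, 5.63, 5.29 and 5.42 in infants, 37.8-fold at 24 h and 41.1-fold at 0 h. Igfbp1, which binds insulin-like growth factors, was 13.5-fold higher in infants, and Igf1r, their receptor, 4.38-fold. Hsd3b1, a steroid dehydrogenase, was 409.5-fold higher in infants, with 2 of 4 adult arrays above background. Pnliprp1, related to pancreatic lipase, read 3.99, 3.60, 3.72 and 3.87 in infants and was below background in adults, at least 179.2-fold apart. The 2 pancreatic acinar markers tested had summed levels of 6.37 to 7.94 in adults and 8.15 to 10.6 in infants, and their part in the Pnliprp1 gap was not tested.

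**Figure D3:**
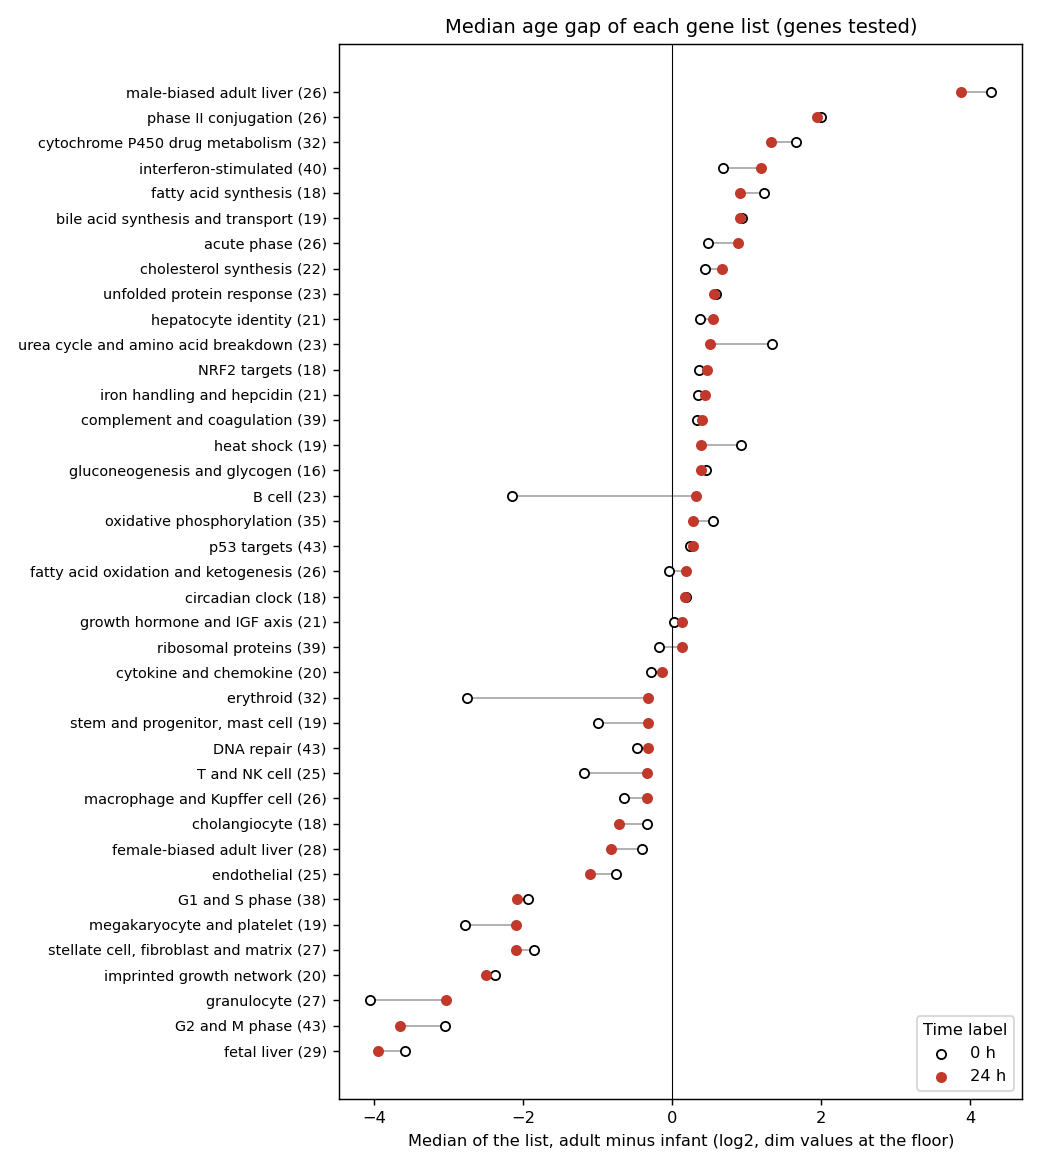
Median age gap of each gene list in log2 units at 0 h (open) and 24 h (red), with the number of genes tested in brackets and dim values raised to the floor of their array. The erythroid and B cell medians move most between the times, from -2.75 to -0.32 and from -2.15 to 0.32, and major urinary proteins, at 11.43, are left off the axis.

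Blood cell genes divided into those whose gap closed and those whose gap stayed. The B cell gap was the most changed: 18 of 23 genes were lower in adults at 0 h and 6 at 24 h, when another 6 were higher. At 24 h 9 of the 23 were below background on all adult arrays, and 6 on all 8 arrays. Part of the split at 24 h was therefore read near background, and it became 2 lower and 10 higher after normexp background correction. For 19 genes the change passed, all towards adults (background 5.8%). Vpreb3, part of the surrogate light chain of early B cells, read 3.76, 2.95, 3.47 and 3.56 in infants at 0 h and -2.39, -1.90, -2.08 and -1.87 at 24 h. It fell by 5.50 on the log2 scale in infants, and adults at 24 h read -2.29, -2.36, -2.29 and -2.0. The 24 h ages overlapped, with a gap of -0.18 ± 0.21 (adjusted p = 0.461). Summed over the 8 B cell markers the infant level was 21.4 to 32.9 at 0 h and 1.75 to 2.0 at 24 h, against 1.01 to 1.15 in adults at 24 h, where Cd79a, Igll1 and Ms4a1 were above background on no adult array.

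Dntt, the polymerase that adds bases at immune receptor joins, was at 0.39, -0.02, 0.27 and 0.20 in infants at 0 h and -3.39, -2.72, -3.34 and -3.43 at 24 h, above background on 3 of 4. Adults read -0.95, -0.80, 0.91 and 0.00 at 24 h, an 8.08-fold gap in their favour where none had passed at 0 h (adjusted p = 0.0584). Cd72, a B cell coreceptor, turned over, with a gap of -1.06 at 0 h and 1.58 ± 0.20 at 24 h, a change of 2.65 ± 0.29 (adjusted p = 0.000142). Cd72 rose by 1.55 in adults and fell by 1.09 in infants. T and NK cell genes were 13 lower and 3 higher in adults of 25, and 7 changes passed towards adults, 3 without infant female 1 and 2 with the slide as a term. Zap70, a kinase of the T cell receptor, was 20.2-fold higher in adults, opposite to most of that list.

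Red cell genes lost much of their gap but not all. Of 32 erythroid genes 27 were lower in adults at 0 h and 17 at 24 h, 21 changes passed towards adults and none towards infants, and 12 members were below background on all adult arrays at 24 h. Slc4a1, the anion exchanger of the red cell membrane, read 5.04, 4.21, 4.92 and 4.31 in infants at 0 h and -0.87, 1.06, -0.41 and 0.66 at 24 h, and the adult arrays of 24 h read -3.60, -3.74, -3.52 and -3.31, with 1 of 4 above background. Its gap went from 129.1-fold to 12.6-fold. Rhd, a blood group antigen of the red cell membrane, was at 2.74, 1.79, 2.98 and 2.30 in infants at 0 h and -5.22, -1.97, -3.44 and -2.11 at 24 h, with infant male 1 lowest and below background, and no adult array was above background. Gata1, the transcription factor of red cell and platelet precursors, fell by 2.92 in infants and was at least 5.23-fold above adults at 24 h. Globin messages went the other way from this list: Hba-a1 was 9.88-fold and Hbb-bt 16.2-fold higher in infants at 24 h, against 6.29-fold and 8.25-fold at 0 h, with changes that did not pass (adjusted p = 0.184 and 0.137).

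Granulocyte genes kept the widest blood gap. Of 27 genes 20 were lower and 4 higher in adults at 24 h, with 12 changes towards adults (20 after normexp background correction) and a median gap of -3.03 against -4.05. Mpo, the peroxidase of neutrophil granules, read 4.71, 3.98, 4.58 and 4.90 in infants at 0 h, 0.96, 1.31, 1.42 and 2.07 at 24 h, and was below background on every adult array. Mpo fell 8.59-fold in infants, and the gap at 24 h was at least 35.0-fold. Ltf, lactoferrin of later granules, read 3.56, 3.94, 4.25 and 4.59 in infants at 24 h and stayed at least 219-fold above adults, and it fell by 0.79. Stfa1, a cysteine protease inhibitor of neutrophils, was 1244-fold higher in infants, with 1 of 4 adult arrays above background. The summed granulocyte markers were at 224 to 348 in infants and 4.63 to 6.75 in adults at 24 h, and at 500 to 680 and 4.23 to 10.4 at 0 h.

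Platelet and macrophage genes gave 2 changes each, all towards adults, beside 5.8% of all genes. All 19 megakaryocyte and platelet genes were lower in adults at both times, and 2 changes passed (8 after normexp background correction, 4 after quantile normalization and 1 to 5 with 1 array left out). Pf4, platelet factor, was 19.4-fold higher in infants at 24 h and 28.6-fold at 0 h, and Ppbp, a platelet chemokine precursor, was at least 64.9-fold higher. Of 26 macrophage and Kupffer cell genes 14 were lower and 2 higher in adults at 24 h, and their changes ran from 0 to 4 with 1 array left out. Marco, a scavenger receptor, read 2.72, 2.52, 4.12 and 3.15 in adults and 7.29, 7.11, 7.11 and 7.32 in infants, 16.9-fold apart. Myb, the factor of blood progenitors, read -3.47, -3.11, -3.39 and -2.89 in infants at 24 h after 1.62, 0.63, 0.97 and 1.19 at 0 h, a fall of 4.31 with 3 of 4 arrays above background at 24 h, and stem, progenitor and mast cell genes gave 8 changes towards adults of 19. Cd24a, a surface antigen of immature blood and epithelial cells, went from 54.5-fold to 15.4-fold higher in infants.

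**Figure D4:**
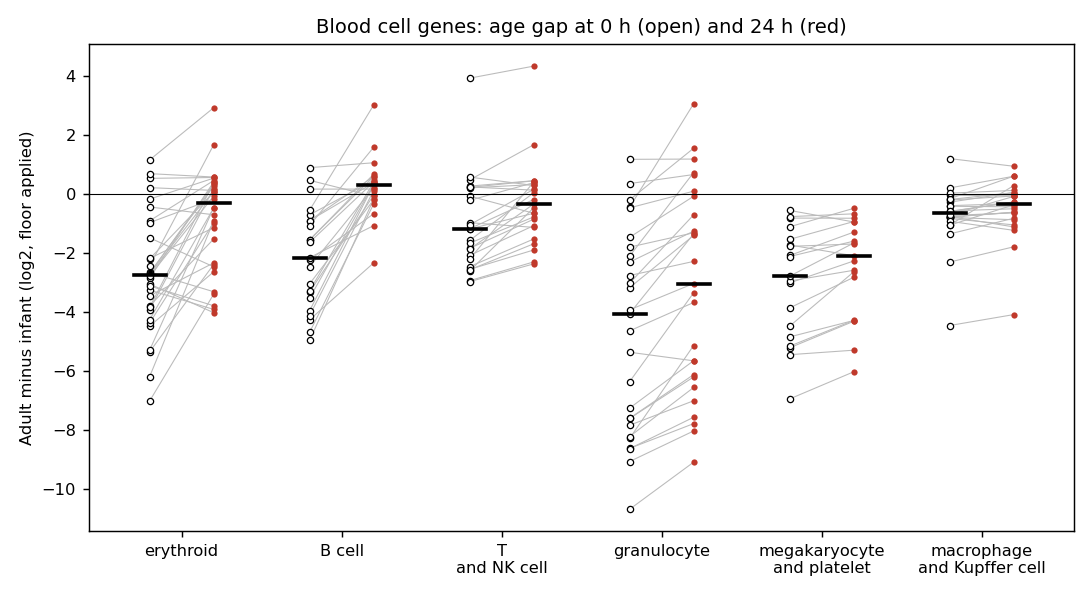
Age gap of each gene of 6 blood cell lists at 0 h (open) and 24 h (red), adult minus infant in log2 units with dim values raised to the floor, with a line per gene and a black bar at each median. The B cell median crosses from -2.15 to 0.32 and the granulocyte median moves from -4.05 to -3.03, while the macrophage median stays between -0.65 and -0.34.

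Cell cycle genes were higher in infants at both times, and the gap of some G2 and M phase genes widened. All 43 G2 and M phase genes tested were lower in adults at both times, with a median gap of -3.65 at 24 h and -3.05 at 0 h, and 16 changes passed towards infants and 1 towards adults (background 8.68% and 5.8%). These counts were 9 and 4 after normexp background correction, and 7 and 1 in a fit without sex. At 24 h 15 of the 43 were below background on every adult array. Of 38 G1 and S phase genes 35 were lower and 2 higher in adults, and 5 changes passed towards infants and 1 towards adults. Cdc20, which switches on the anaphase-promoting complex, read -1.81, -2.34, -1.95 and -2.18 in adults and 3.42, 3.58, 3.69 and 3.75 in infants at 24 h, a 51.2-fold gap. Adults had read -0.04, -1.46, 1.21 and 1.39 at 0 h, so the change of the gap, -2.63 ± 0.36 (adjusted p = 0.000604), went with a fall of 2.34 in adults, while infants differed by 0.29 (adjusted p = 0.46).

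Ccna2, cyclin A2, read 2.30, 2.35, 2.44 and 2.52 in infants and was below background on every adult array at 24 h, at least 68.2-fold apart, where all adult arrays had been above background at 0 h. Prc1, which bundles microtubules for cytokinesis, was at least 64.2-fold and Mki67, the proliferation antigen, 73.3-fold higher in infants, the latter with 3 of 4 adult arrays above background. Ccne1, cyclin E1, and Mcm5, of the replicative helicase, were 18.3-fold and 25.3-fold higher in infants. DNA repair genes as a list were 24 lower and 12 higher in adults of 43 (7 higher with median scaling). At 0 h both adult females read above both adult males for Cdc20, and at 24 h the adult sexes overlapped. Red cell and granulocyte markers were also higher in infants at 24 h, as given above, and their part in the cell cycle gap was not tested.

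The 250 bases before the start of Cdc20 are shown because the CHR element, TTTGAA, marks promoters of genes of mitosis, and it was found here 18 bases before the start. The sequence is RefSeq's for GRCm38.p6, chr4:118437344-118437593, minus strand, written 5′ to 3′ on the strand of the gene with the match in capitals.
Cdc20: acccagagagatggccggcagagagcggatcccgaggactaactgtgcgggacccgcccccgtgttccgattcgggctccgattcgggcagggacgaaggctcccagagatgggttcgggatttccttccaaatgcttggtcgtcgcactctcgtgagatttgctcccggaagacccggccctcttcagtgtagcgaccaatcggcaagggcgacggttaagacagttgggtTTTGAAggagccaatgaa
Searched on both strands in windows of 300 bases that end 50 bases after the start, TTTGAA was found in 27 of the 36 G2 and M phase genes with a promoter in the table (75%), and in 1516 of 11871 genes tested (12.8%). A match is a description of these letters and not of binding.

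Matrix, vessel wall and bile duct genes were mostly higher in infants, and the gap of some matrix genes widened. Of 27 stellate cell, fibroblast and matrix genes 26 were lower in adults, with a median gap of -2.09 at 24 h and -1.86 at 0 h, and 7 changes passed towards infants (3 without infant female 1, 4 after quantile normalization, 1 with the slide as a term). Col3a1, a fibrillar collagen, read 2.18, 2.12, 2.36 and 2.08 in adults and 6.29, 5.91, 6.35 and 5.91 in infants, 15.2-fold against 7.92-fold at 0 h. Col1a1, the main fibrillar collagen, went from 9.17-fold to 21.0-fold and Eln, elastin, stood at 56.1-fold with 1 of 4 adult arrays above background. Acta2, the smooth muscle actin of activated stellate cells and vessel walls, read -1.35, -1.58, -0.79 and -1.49 in adults and 3.39, 2.92, 3.80 and 3.09 in infants, 24.2-fold against 7.14-fold. The change for Acta2 was -1.76 ± 0.43 (adjusted p = 0.0153), and -0.90 with the slide as a term (adjusted p = 0.349).

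Actg2, a smooth muscle actin, and Cnn1, calponin of smooth muscle, were at least 36.5-fold and 30.8-fold higher in infants. Skeletal muscle genes were present on a few infant arrays: Acta1, skeletal actin, read -2.52, -2.82, 4.28 and -2.76 in infants at 24 h, and Tnni2, fast troponin I, -1.04, -1.49, 5.26 and -1.31, with infant female 1 high for both. Infant female 2 of 0 h was also high for Acta1, at 2.23. Without infant female 1 of 24 h the gaps of Acta2, Actg2 and Cnn1 were -4.42, -5.72 and -6.39, against -4.60, -5.92 and -6.64 with it.

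Endothelial genes were 23 lower and none higher in adults of 25, with a median gap of -1.11. Of these 25, 2 changes passed towards infants and none towards adults, near the shares of all genes (8.68% and 5.8%). Lyve1, a hyaluronan receptor of sinusoids and lymphatics, read 0.58, 0.55, 0.41 and 0.17 in adults and 2.15, 2.31, 1.96 and 1.87 in infants. Pecam1, of endothelial junctions, went from 1.51-fold to 2.32-fold higher in infants. Clec4g, a lectin of liver sinusoids, changed side, at 0.43 in favour of adults at 0 h and -0.58 ± 0.17 at 24 h (adjusted p = 0.00873), but the gap at 24 h did not pass when 1 array was left out. Krt19, a keratin of bile ducts, read -1.83, -2.06, -1.74 and -2.19 in adults and 1.64, 1.09, 1.15 and 1.13 in infants at 24 h, and rose by 1.57 in infants from 0 h. Of 18 cholangiocyte genes 9 were lower and 3 higher in adults, and 3 changes passed towards infants and none towards adults (1 towards infants with the slide as a term).

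Radiation-responsive genes did not separate the ages as a list. Of 43 p53 targets 21 were higher and 14 lower in adults at 24 h, against 21 and 18 at 0 h, the median of 0.28 was close to that of all genes at 0.27, and 3 changes passed in each direction. Phlda3, a p53 target that restrains Akt, rose by 3.02 in adults and 2.87 in infants between 0 h and 24 h and read 2.31, 2.37, 2.66 and 2.76 in adults and 3.41, 3.31, 3.51 and 3.35 in infants. Every infant array was above every adult array, but the gap of -0.87 ± 0.33 passed narrowly (adjusted p = 0.0309) and failed in 8 of the sets with 1 array left out.

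Cdkn1a, the p21 inhibitor that stops the cycle, read 2.43, 2.34, 2.14 and 2.20 in adults and 2.60, 2.44, 2.62 and 2.57 in infants at 24 h. Every infant array was above every adult array, but the gap of -0.28 ± 0.32 did not pass (adjusted p = 0.454). Its standard error is pooled over all times. At 0 h the adult arrays of Cdkn1a spread from 2.05 and 0.21 in males to -3.49 and -3.42 in females, and the other probe of the gene gave the opposite sign for the gap at 0 h and its change, so no change is given for it. Zmat3, a p53-induced RNA-binding protein, passed from 1.77-fold higher in adults at 0 h to 1.43-fold higher in infants, with 0.15, 0.05, 0.15 and 0.41 in adults and 0.73, 0.65, 0.70 and 0.75 in infants. Zmat3 rose by 1.77 in infants and 0.43 in adults, and the change was -1.35 ± 0.12 (adjusted p = 2.37e-05). Sesn2, a stress-induced sestrin, lost its gap, from 2.04-fold higher in infants to -0.07 ± 0.14 (adjusted p = 0.678). Gdf15, a stress hormone, was 2.95-fold higher in adults, Ephx1, an epoxide hydrolase, 2.56-fold, and Btg2, an antiproliferative factor, 3.12-fold higher in infants. Psrc1, a spindle protein and p53 target, was 4.00-fold higher in infants at 24 h and 4.26-fold at 0 h.

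Interferon-stimulated genes parted the ages more at 24 h than at 0 h. Of 40 tested, 34 were higher and 1 lower in adults at 24 h, against 24 and 6 at 0 h, with a median of 1.20 against 0.68. Changes passed towards adults for 11 and towards infants for none, but this count ran from 4 without infant male 2 of 24 h to 24 over the sets with 1 array left out. With the slide as a term 21 were higher in adults at 24 h. Adult male 1 of 0 h stood apart from the other adult arrays of that time for these genes. Isg15, a ubiquitin-like modifier, read 5.34, 3.79, 3.54 and 3.49 in adults at 0 h and 6.22, 6.13, 6.58 and 6.58 at 24 h.

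Infants read 3.91, 3.79, 4.00 and 3.64 for Isg15 at 24 h, a 5.83-fold gap without overlap, and the change was 1.79 ± 0.35 (adjusted p = 0.00478). Ifit1, which binds foreign RNA caps, read 1.75, 1.61, 2.75 and 2.61 in adults and -0.79, -1.28, -0.95 and -1.35 in infants, 9.69-fold apart. Cmpk2, a mitochondrial nucleotide kinase, had no gap at 0 h (adjusted p = 0.945) and a 3.47-fold gap at 24 h. Rsad2, viperin, crossed over, with 1.74, 1.29, 2.54 and 1.81 in infants at 0 h and 1.03, 1.37, 0.91 and 0.83 at 24 h, against 2.04, 1.37, 1.90 and 1.94 in adults at 24 h. Its gap of 0.78 ± 0.24 (adjusted p = 0.0103) did not pass without adult male 1 of 24 h and was -0.29 with the slide as a term (adjusted p = 0.74). Oasl1, an oligoadenylate synthetase-like protein, was 7.84-fold higher in adults.

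Promoters of 3 of these genes are shown because they hold the core of the interferon-stimulated response element, GAAA followed by any 2 bases and GAAA. Each is the 250 bases before the start from RefSeq for GRCm38.p6, written 5′ to 3′ on the strand of the gene, with matches in capitals: Isg15 at chr4:156200819-156201068 on the minus strand, Ifit1 at chr19:34640639-34640888 on the plus strand and Rsad2 at chr12:26456453-26456702 on the minus strand.
Isg15: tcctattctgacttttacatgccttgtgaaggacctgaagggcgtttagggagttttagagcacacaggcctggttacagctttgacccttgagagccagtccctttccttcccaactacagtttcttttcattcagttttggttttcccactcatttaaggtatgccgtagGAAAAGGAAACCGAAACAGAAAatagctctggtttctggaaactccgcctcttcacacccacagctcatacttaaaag
Ifit1: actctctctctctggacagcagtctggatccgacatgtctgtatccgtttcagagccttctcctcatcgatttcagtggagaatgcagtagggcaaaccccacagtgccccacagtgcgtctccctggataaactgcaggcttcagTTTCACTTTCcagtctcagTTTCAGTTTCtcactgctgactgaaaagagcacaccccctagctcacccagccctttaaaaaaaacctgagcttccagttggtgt
Rsad2: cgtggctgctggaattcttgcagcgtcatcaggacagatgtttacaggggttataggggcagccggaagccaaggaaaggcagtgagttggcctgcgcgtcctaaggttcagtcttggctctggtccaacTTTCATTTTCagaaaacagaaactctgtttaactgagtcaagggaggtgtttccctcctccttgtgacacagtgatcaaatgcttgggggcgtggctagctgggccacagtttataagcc
Isg15 has 3 overlapping matches that begin 78, 72 and 66 bases before the start, Ifit1 has 2 on the other strand at 104 and 85, and Rsad2 has 1 on the other strand at 120. The letters were found in 16 of the 29 interferon-stimulated genes with a promoter in the table (55.2%) and in 383 of 11871 genes tested (3.23%). No match was found for Cmpk2 in this window.

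Acute phase genes were 18 higher and 1 lower in adults of 26 at 24 h, against 11 and 2 at 0 h. With the slide as a term 9 were higher at 24 h. The change itself passed towards adults for 2 of the 26 (background 5.8%) and towards infants for none. That count towards adults was 3 with the slide as a term, and 0 with the slide as a random block or in a fit without sex. It ran from 1 to 10 with 1 array left out. Saa1, a serum amyloid protein, read 10.39, 10.03, 10.03 and 10.16 in adults and 2.23, 2.15, 2.59 and 2.83 in infants, a 208.1-fold gap. The adult arrays of 0 h read 10.31, 7.66, 4.70 and 4.75 for Saa1, so adult male 1 was already at its 24 h level, and the gap at 0 h was 46.0-fold with a change of 2.18 ± 0.55 (adjusted p = 0.0199). That change did not pass with the slide as a random block (3.06, adjusted p = 0.0565) or in a fit without sex (adjusted p = 0.292).

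Iron genes did not move together: of 21 tested, 3 changes passed towards adults and 4 towards infants, and the median gap was 0.44 at 24 h and 0.35 at 0 h. Hamp, hepcidin, the liver hormone that blocks iron release into plasma, read 8.63, 8.81, 8.38 and 8.50 in adults and 3.42, 2.08, 4.91 and 4.65 in infants at 24 h. Infants had read 0.69, 1.03, -1.47 and -0.41 at 0 h, so hepcidin rose by 3.81 in infants (adjusted p = 1.45e-06) and by 1.04 in adults. The ages stayed apart on every array, and the gap went from 191.1-fold to 28.1-fold, a change of -2.77 ± 0.40 (adjusted p = 0.000866). With the slide as a term the change was -1.82 and did not pass (adjusted p = 0.211). Tfrc, the transferrin receptor that red cell precursors carry at high level, fell 5.60-fold in infants, to 0.13, 0.24, 0.32 and 0.43, and its gap went from 10.7-fold to 2.51-fold. The summed erythroid markers fell in infants over the same interval, as given for Cps1, and their part in the iron genes was not tested. Over the list 12 genes were higher and 8 lower in adults at 24 h, beside 44.3% and 22.2% of all genes.

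Small shifts shared by whole complexes depended on the scaling. Ribosomal protein genes gave 19 changes towards adults of 39 and none towards infants (background 5.8% and 8.68%). At 24 h 16 were higher and 1 lower in adults, beside 44.3% and 22.2% of all genes. With the slide as a term 5 ribosomal changes passed towards adults and 1 gene was higher in adults. As a random block the slide left 5 changes. Their median gap was 0.14, but -0.02 with median scaling and -0.32 after quantile normalization, where none was higher in adults; without infant female 1 of 24 h 11 changes passed, and 2 in a fit without sex. Of 35 oxidative phosphorylation genes 25 were higher and none lower in adults, and 5 were higher with the slide as a term. Their median of 0.29 became -0.19 after quantile normalization, and 9 changes passed towards infants (background 8.68%). Cyc1, cytochrome c1 of the respiratory chain, read 7.28, 7.37, 6.67 and 6.87 in adults and 6.76, 7.04, 6.98 and 7.05 in infants, overlapping at 24 h where the gap at 0 h had been 1.63-fold. After quantile normalization the gap of Cyc1 was -0.37.

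Heat shock genes were 10 higher and 3 lower in adults of 19, near the 44.3% and 22.2% of all genes. Their changes passed towards infants for 5, and their median of 0.39 was -0.02 after quantile normalization. Hsph1, a large heat shock protein, read 2.71, 3.04, 2.16 and 2.98 in adults and 1.68, 1.69, 1.97 and 1.89 in infants, and its gap went from 5.05-fold to 1.89-fold with a fall of 0.92 in adults. Clock genes were 7 higher and 3 lower in adults of 18, beside 44.3% and 22.2% of all genes, and the sign of their median depended on the scaling. Changes of clock genes passed for 4 towards adults and 6 towards infants, and for none in a fit without sex. Dbp, an output factor of the clock, no longer passed at 24 h, at 4.01, 4.77, 3.86 and 4.53 in adults and 3.83, 3.56, 3.93 and 3.45 in infants (adjusted p = 0.0638). At 0 h Dbp had read 2.66 and 1.86 in adult males and 7.07 and 6.94 in adult females. The time of day of sampling is not given in the sources used here.

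The gap between the ages was not the same in the sexes. The difference of the gap between males and females passed for 1977 genes (8.55%), more positive in males for 3.5% and in females for 5.05% of genes, and this count ran from 558 without infant male 1 to 2225 over the sets with 1 array of 24 h left out. Adult males and females lay on different slides at 24 h, so sex and slide cannot be told apart in adults at that time, but the 4 adult arrays of 0 h shared slide 3. Genes were taken from lists of sex-biased liver genes that were drawn up with earlier results of these data known. All 26 male-biased genes were higher in adults averaged over the sexes, with a median gap of 6.06 in males and 3.03 in females, and the difference passed for 21, all in the male direction. Of 28 female-biased genes 17 were lower and 7 higher in adults, with a median of -2.11 in males and 0.41 in females, and the difference passed for 21, all in the female direction.

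Among male-biased genes, Cyp4a12b, a fatty acid hydroxylase, read 7.35 and 7.35 in adult males and 1.37 and 1.45 in adult females, with no infant array above background. Its gap was 5.97 ± 0.73 larger in males (adjusted p = 0.000379), and on the shared slide of 0 h it read 6.80 and 7.50 in adult males and 1.12 and 2.51 in adult females. Elovl3, a fatty acid elongase, read 5.14 and 4.27 in adult males and -1.17 and -0.17 in adult females, again with no infant array above background. Nat8, an acetyltransferase outside that list, read 3.37 and 3.79 against -0.60 and -0.99, with infants at -2.76 to -2.03. Moxd1, a monooxygenase, was above background in adult males alone, at 1.21 and 0.81, and its sex difference did not pass without infant female 1 of 24 h (adjusted p = 0.0503) or after normexp background correction (2.50, adjusted p = 0.0929).

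Female-biased genes came in more than 1 pattern. Cyp2b13, a steroid-metabolising P450, was below background in both adult males and read 6.64 and 6.04 in adult females, with infants of both sexes between, at 3.45, 3.13, 3.30 and 3.42. Infants therefore lay above adult males and below adult females, and the difference of the gap was -11.66 ± 0.48 (adjusted p = 9.85e-09). At 0 h, on 1 slide, adult females read 6.51 and 5.71 for Cyp2b13 and both adult males were again below background. Cyp3a44 read 5.30, 5.41, 4.89 and 5.28 in infants, 5.52 and 5.86 in adult females and -2.68 and -3.51 in adult males, 1 of them above background, so adult males lay below all other arrays. Sult2a2, a hydroxysteroid sulfotransferase, had infants highest at 6.65 to 6.83, adult females at 5.06 and 4.33 and adult males at -1.84 and -5.47, the latter below background. Sult3a1, another sulfotransferase, was above background in adult females alone, at 4.40 and 2.95.

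**Figure D5:**
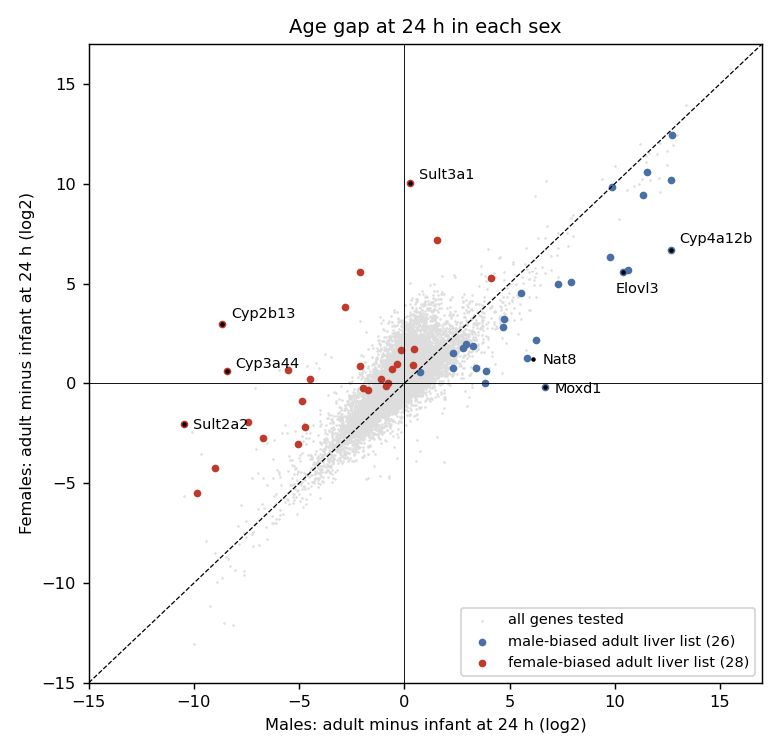
Age gap at 24 h of every gene tested in males (x axis) and in females (y axis), adult minus infant in log2 units, with male-biased genes in blue and female-biased genes in red. Most blue genes lie below the dashed line of equal gaps, as Cyp4a12b at 5.97 log2 units, and most red genes above it, as Cyp2b13 at 11.66 log2 units.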

How the data were processed

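Liver RNA was measured on 24 single-colour Agilent arrays, and the 8 arrays of 24 h and the 8 of 0 h were described here. Per the labels, RNA came from the AllPrep kit and 200 ng was labelled with Cy3. The deposited scanner files hold the processed signal, the spot median and the local background median as intensity values, and marks of 0 or 1 for spots well above background, saturated, non-uniform or outlying, per the file headers. The scans were read with Feature Extraction, whose version is 10.5.1.1 in the scanner files and 11.5.1 in the submitters' processing notes; the scanner files name build mm9. The authors' deposited table holds log2 values, which matched the scanner values centred on each probe's median (correlation 1, slope 0.999 to 1) and served as an alternative.

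Replicate spots were averaged, 94 probes with a missing value were left out and 55587 kept; no spot was saturated. RefSeq symbols (GRCm38.p6) were found for 27987 (94.1%) of the 29753 probes whose accession has the RefSeq form. The log2 processed signal minus each array's 75th percentile was used. A probe entered if at least 4 of the 24 arrays marked it well above background, and each gene was read from its brightest probe (23115 genes, 14951 with a symbol). limma 3.58.1 fitted 12 means, one for every combination of age, time and sex, leaving 12 residual degrees of freedom to which the prior added 1.86. The fit ran in R 4.3.3 (data.table version 1.17.8, jsonlite 2.0.0, statmod 1.5.0) and was tested on simulated data. Plots used Python 3.11.15 and matplotlib 3.10.9.

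The genes named were the largest gaps and changes among genes with a symbol whose other probes did not oppose them, a fixed set from each list, and genes that differ between the sexes; Cdkn1a is an exception given with its caveat, and Acta1 and Igf1 were added after their values were seen. The members and lists were chosen with earlier results of these data known. Replicate numbers did not pair the ages (the correlation of deviations at 24 h was 0.065 in males and 0.161 in females), so no block entered the fit. Alternatives covered scaling, background correction, filter, probe rule, arrays in the fit, sex, slide, replicate block, a 2-fold null, the authors' table and each array left out; the floor for dim values and the model without slide were chosen after seeing the data. Within-slide values could not be had, since no slide held both ages at 24 h or at 0 h. A few genes are not reported here.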

Additional observations from a re-analysis of the deposited data

Results flagged for a closer look

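Levels and differences here are on the log2 scale, and levels are relative to each array's 75th percentile. A sample that stood far from the other 3 of its group was found for 5 groups of 4 arrays among the genes described by their age difference. These genes made 198 groups, but those with no array above background were not examined, so fewer than 198 were. Chance gives about 1 in 20 of the groups examined, if the sexes do not differ. Infant male 1 accounted for 4 of the 5, with levels of 5.85 for Cps1, 1.64 for Krt19, 7.51 for Ephx1 and 0.81 for Igf1r. Infant male 2 accounted for the fifth, with -2.72 for the lymphocyte polymerase Dntt. Infant female 1 stood apart for the skeletal muscle genes Acta1, at 4.28, and Tnni2, at 5.26.

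The age difference at 24 h differed between males and females by the tested interaction for 8 genes described above. In males minus females it was 5.97 for Cyp4a12b, 6.89 for Moxd1, 4.90 for Nat8 and 4.80 for Elovl3, and -11.66 for Cyp2b13, -9.79 for Sult3a1, -9.05 for Cyp3a44 and -8.44 for Sult2a2. The difference for Moxd1 did not pass without infant female 1 (adjusted p = 0.0503) or after normexp background correction (adjusted p = 0.0929).

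The age difference took opposite signs at 0 h and 24 h, with the change itself past the threshold, for 5 genes described here. The change was 2.65 for Cd72, 2.30 for Rsad2 and 1.35 for Ppp1r15a, towards adults, and -1.35 for Zmat3 and -1.01 for Clec4g, towards infants.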

How the results depend on the processing

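With each alternative run one at a time, the count of 15367 genes that differed between the ages at 24 h became 7267 with slide as a fixed term and 2758 against a 2-fold null, and lay between 14016 and 14749 with each array of 24 h left out and between 15328 and 15506 with each of 0 h. The count of 12915 gaps present at both times became 6281 with the slide term and 2221 against the 2-fold null, and lay between 12133 and 12773 with each array left out. The count of 3346 changes of the gap became 873 without sex, 1954 in the model of age by time and age by sex with no slide (chosen after seeing the data), 1572 with slide as a random block and 45 against the 2-fold null, and lay between 2187 (without infant female 1 of 24 h) and 3726 with each array left out. The count of 1977 sex differences became 1019 with no filter on dim probes, 937 in a fit of the compared groups alone and 54 against the 2-fold null. With each array of 24 h left out it lay between 558, without infant male 1, and 2225, without adult male 1, and with each array of 0 h left out between 1711 and 2259. The cause of these shifts was not tested, beyond the larger difference that a 2-fold null asks for by its construction. Quantile normalization, median scaling, normexp background correction, the stricter filter, the mean of a gene's probes and the authors' deposited table each kept all 4 counts within 1.5 times. The replicate block gave 15641, 13151, 3640 and 2661 for the same 4 counts, in the order age difference, gaps at both times, changes and sex differences, and the replicate numbers did not pair the ages. The direction reversed in 2 cases among the genes described: the age difference of Rsad2 was -0.29 with the slide term (limma, adjusted p = 0.74), and that of Cyc1 was -0.37 after quantile normalization (adjusted p = 0.00263). Over 99 genes described by their age difference, 22 lost the call under at least 1 alternative, and with the slide term 85 kept direction and side of the threshold. Over 40 genes described by a change, 34 lost the call under at least 1 alternative. No slide held both ages at 24 h or at 0 h, so no within-slide value exists. The slide term was estimated over the arrays of all times, in a model that held the sex difference within each age constant over time. Whether that difference is constant was not tested. No fit of the sex difference with slide was made. Signal limits the dim genes: 1611 calls at 24 h had the lower age below background on all 4 arrays, and 27 had no array of either age above it.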

Other observations

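Targets of the unfolded protein and amino acid stress responses, which cells switch on when folding capacity or amino acids run short, were mostly higher in adult liver at 24 h. Of 23 measured members 15 were higher in adults, 3 were higher in infants and 5 did not pass (limma, adjusted p under 0.05), with a median age difference of 0.56 on the log2 scale against 0.27 over all genes tested. After quantile normalization the split was 10 higher and 6 lower, with a median of 0.12. At 0 h 15 were higher in adults and 4 lower. Chac1, an enzyme that degrades glutathione, read 1.75 and 1.84 in adult males, 2.45 and 1.23 in adult females, -3.77 and -4.49 in infant males and -2.36 and -2.60 in infant females. Its groups were far apart, 34.7-fold higher in adults (adjusted p = 1.78e-09), although only 2 of the 4 infant arrays measured it above background. Trib3, a pseudokinase of the same response, was 5.84-fold higher in adults (2.86, 2.86, 3.57 and 3.52 against 1.1, 0.69, 0.39 and 0.46; adjusted p = 1.79e-06). Asns, the enzyme that makes asparagine, went the other way and was 9.98-fold higher in infants (adjusted p = 5.7e-09). Its 4 infant arrays lay between 4.01 and 4.22, whereas adult males read 2.32 and 2.27 and adult females -0.14 and -1.26, so that the gap was 2.98 log2 units wider in females (adjusted p of the interaction = 0.0011).

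Ppp1r15a, which restarts translation after stress, changed side between the times. At 0 h it was 0.99 log2 units lower in adults (adjusted p = 3.97e-06), and at 24 h adults read 2.21, 2.31, 2.01 and 2.17 and infants 1.73, 1.96, 1.68 and 1.92. The change of the gap was 1.35 ± 0.17 (SE, adjusted p = 0.000379), and its infant level fell by 1.5 from 0 h to 24 h (adjusted p = 3.08e-06). The small gap at 24 h, 0.35 (adjusted p = 0.0187), missed the threshold after median scaling (0.19, adjusted p = 0.184) and quantile normalization (0.12, adjusted p = 0.441), with the slide term and without any 1 of 4 arrays, so that its side at 24 h is not settled.

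Among targets of the oxidative stress factor NRF2, 9 of 18 measured members were higher in adults and 6 in infants at 24 h. For this and the following lists, the shares over all genes tested were 44.3% higher and 22.2% lower in adults. Gstm1, a glutathione transferase, was 6.95-fold higher in adults (8.50, 8.44, 8.28 and 8.27 against 5.66, 5.50, 5.59 and 5.55; adjusted p = 5.18e-11). Hmox1, which breaks down haem, was 5.83-fold higher in infants (1.81, 1.84, 1.70 and 1.53 in adults against 4.16, 4.41, 4.16 and 4.32; adjusted p = 1.57e-10). In the growth hormone and IGF list 7 of 21 members were higher in adults and 9 in infants, and the median of 0.14 turned to -0.02 after median scaling and -0.27 after quantile normalization. Igf1, the circulating growth factor that liver makes after birth, was 3.18-fold higher in adults at 24 h, at 7.40, 7.31, 7.40 and 7.49 against 5.74, 5.66, 5.74 and 5.78 (adjusted p = 1.32e-10). Of 20 measured cytokines and chemokines 4 were higher in adults and 6 in infants. Ccl5, a chemokine of lymphocytes, was 5.15-fold higher in infants (0.03, -0.46, 0.18 and 0.06 in adults against 2.35, 2.33, 2.19 and 2.40; adjusted p = 2.13e-08). Neither Ccl5 nor Hmox1 changed its gap past the threshold from 0 h to 24 h (adjusted p = 0.107 and 0.102).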
